A study of Homo sapiens with 6 samples.

Results

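The genes described here are 962 of the human genes with the highest nascent RNA signal at the gene start relative to the gene body in SBC-3 cells, a human small cell lung cancer line. For each gene the deposited PRO-seq profile gives signal in 500 bins, of which the middle 300 were taken to cover the gene itself and are numbered here from 1 at its start. P is the mean of bin 1 and bin 2, B is the mean of bin 4 to bin 300, along the gene body, and P/B is called the pausing ratio. Genes were kept where B was at least 2 and P/B at least 50, both computed from the mean over all 6 libraries. That gave 962 of 21065 genes with B of at least 2 (4.57%), out of 51974 genes with a profile. The genes were thus chosen by their measured P/B, and its level is given as a description only, while the difference between siRNA groups did not enter the choice, except that the mean holds 4 siSFPQ and 2 siCtrl libraries.

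RNA polymerase II often stops shortly after starting a transcript, held by the factors NELF and DSIF. It enters the gene body when the kinase P-TEFb, which is kept inactive by the 7SK RNA complex and recruited by the super elongation complex, phosphorylates these factors and the polymerase. PRO-seq sequences the RNA made by engaged polymerases in permeabilized cells, so paused polymerases appear as a peak just after the gene start. Stress response, developmental and signalling genes are well known for such pausing.

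Cells were transfected with a control siRNA (siCtrl) or with 1 of 2 SFPQ siRNAs, named siSFPQ-2 and siSFPQ-3, all at 10 nM, and were permeabilized after 72 h. Each of these 3 groups had 2 libraries. SFPQ is a nuclear RNA- and DNA-binding protein found in paraspeckles, and the design compares nascent transcription with and without its knockdown. The knockdown was transient and used a single cell line.

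The libraries held 12072813 to 18475158 recovered reads, and a strongly paused gene had a median of 381 to 582 reads in a library. Whether replicate libraries were separate cultures is not stated, and p-values describe the spread among these libraries, which may be technical. SFPQ itself (P/B of 4.13, not among the 962) had 2294 and 2435 normalized reads in the siCtrl libraries and 1825 to 2466 in the siSFPQ libraries, and its log2 change of -0.22 (SE 0.11) missed the threshold (limma, adjusted p = 0.137). Nascent reads of an siRNA target do not measure its mature mRNA, so this does not check the knockdown. Of 8 neuroendocrine markers, DLL3, ENO2 and SYP had a mean of at least 50 normalized reads, and INSM1 and NCAM1 had none listed. The summed reads of the epithelial markers KRT8, KRT18 and EPCAM were 921 to 1016 in siCtrl and 2207 to 2717 in siSFPQ libraries, and their part in the results was not tested. No marker of the 6 cell type lists was among the 962 genes, and immune and endothelial markers had no reads listed. The profiles kept the strands apart where this was checked. HSPA5, a heavily transcribed chaperone gene, had a P of 12830.0, while the highest of the 95 upstream bins of HSPA5-DT, which starts 313 bases away on the other strand, was 10.2. In 6 of the 962 genes (HCCS, MBTPS2, PIGA, EIF1AX and AKAP17A on chromosome X and TMEM175 on chromosome 4) the body window was exactly 0 in 2 to 4 libraries, although their gene reads were 87.5 to 445 in every library. Their window values are not described further, but the 6 genes stay in the counts of members.

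Promoter sequences in the RefSeq table of GRCh38.p14 were matched for 596 of the 962 genes. Each sequence is 300 bases long, with 250 bases before the annotated start and the first 50 bases of the gene. The first 3 below belong to genes among the 10 highest pausing ratios and show how few or many GC boxes such a promoter can hold, and the other 3 belong to genes whose pausing ratio fell with siSFPQ. Capitals mark GC boxes (GGGCGG, the letters bound by SP1) and CCAAT boxes (CCAAT, bound by NF-Y) on either strand; none of the 6 held the TATA box letters TATAAA.
DNAJC25: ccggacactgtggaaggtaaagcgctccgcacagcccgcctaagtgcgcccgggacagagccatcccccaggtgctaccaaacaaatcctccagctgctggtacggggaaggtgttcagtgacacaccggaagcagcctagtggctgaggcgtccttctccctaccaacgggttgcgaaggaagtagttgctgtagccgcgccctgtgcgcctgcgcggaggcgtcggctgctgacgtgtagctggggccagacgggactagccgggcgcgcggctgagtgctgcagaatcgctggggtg
VASN: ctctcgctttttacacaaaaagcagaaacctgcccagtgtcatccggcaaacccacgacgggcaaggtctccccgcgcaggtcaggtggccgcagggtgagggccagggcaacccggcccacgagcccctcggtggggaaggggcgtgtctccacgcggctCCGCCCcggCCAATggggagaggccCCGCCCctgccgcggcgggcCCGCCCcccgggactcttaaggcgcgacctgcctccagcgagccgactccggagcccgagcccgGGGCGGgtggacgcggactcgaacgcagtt
GCC2-AS1: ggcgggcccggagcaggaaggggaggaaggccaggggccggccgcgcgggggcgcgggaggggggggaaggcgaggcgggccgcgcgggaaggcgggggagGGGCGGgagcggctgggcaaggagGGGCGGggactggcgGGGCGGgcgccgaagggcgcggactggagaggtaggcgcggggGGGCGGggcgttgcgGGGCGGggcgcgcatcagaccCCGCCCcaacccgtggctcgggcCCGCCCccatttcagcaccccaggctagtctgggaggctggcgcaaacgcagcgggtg
STOM: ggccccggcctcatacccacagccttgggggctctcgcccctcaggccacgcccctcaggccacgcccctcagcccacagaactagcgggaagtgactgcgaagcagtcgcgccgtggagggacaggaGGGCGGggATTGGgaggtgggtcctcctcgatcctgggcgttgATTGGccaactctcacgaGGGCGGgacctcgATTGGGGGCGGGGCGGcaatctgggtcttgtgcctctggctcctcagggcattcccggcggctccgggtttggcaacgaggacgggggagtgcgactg
PELI1: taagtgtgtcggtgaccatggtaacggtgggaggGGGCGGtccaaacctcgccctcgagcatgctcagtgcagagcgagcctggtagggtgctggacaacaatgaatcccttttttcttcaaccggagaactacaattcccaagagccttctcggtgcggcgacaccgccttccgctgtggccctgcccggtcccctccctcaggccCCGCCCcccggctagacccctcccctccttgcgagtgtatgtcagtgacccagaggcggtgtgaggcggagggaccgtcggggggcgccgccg
HBEGF: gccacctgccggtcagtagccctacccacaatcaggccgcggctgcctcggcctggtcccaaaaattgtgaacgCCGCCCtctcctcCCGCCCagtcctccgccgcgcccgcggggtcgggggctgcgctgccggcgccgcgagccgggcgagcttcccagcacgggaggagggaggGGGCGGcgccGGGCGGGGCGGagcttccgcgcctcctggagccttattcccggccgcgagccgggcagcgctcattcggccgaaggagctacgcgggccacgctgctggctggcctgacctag
In order, these lie at chr9:111631084-111631383 on the plus strand, chr16:4371598-4371897 on the plus strand, chr2:108534170-108534469 on the minus strand, chr9:121370201-121370500 on the minus strand, chr2:64144371-64144670 on the minus strand and chr5:140346554-140346853 on the minus strand. DNAJC25, with the highest P/B, held none of the 3 motifs in a sequence of 65% GC. GCC2-AS1 held 7 GC boxes at 80.7% GC, and STOM held 4 GC boxes and 3 CCAAT boxes.

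GC boxes and CpG-rich sequence were common in the promoters of these genes and the TATA box was rare. GGGCGG, searched on both strands, was present in 493 of 596 promoters (82.7%), against 77.1% at a P/B of 20 to 50, 50.8% at a P/B under 5, 68.6% of the 9049 promoters of all genes with B of at least 2, and 45.0% of all 35116 promoters of this length in the table. TATAAA on either strand was present in 3.86% of the strongly paused genes, 6.14% of all genes with B of at least 2 and 11.5% of the table. The dinucleotide CA with its A on the first base of the gene, a core of the initiator element, was present in 38.6%, 33.8% and 29.6%. CCAAT differed little, with 39.8%, 37.4% and 34.6%. The AP-1 letters TGANTCA, where N is any base, were present in 2.18%, 4.71% and 7.71%. Median GC content was 67.3% against 65% for all genes with B of at least 2, and 95.3% against 80% had a CpG ratio, observed over expected, of 0.6 or more. Within the first 50 bases of the gene the median share of G was 40% against 36%, and that of C was 30% in both. Genes with a P/B of 20 to 50 lay between the members and all genes with B of at least 2 in several traits. Their median GC content was 66%, their median share of G was 38%, and 92.8% reached that CpG ratio. TATAAA was present in 4.43% of them and TGANTCA in 3.65%. The CA share was 32.4% at a P/B of 20 to 50 and 35.4% under 5, so it did not rise steadily with P/B. These shares are descriptions of letters in a fixed window, and most promoters at a P/B of 20 to 50 held a GC box too.

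In the strongly paused genes the signal rose steeply at the start of the gene and fell to a low body level within a few bins. The median profile of the siCtrl libraries was 1350 in bin 1, 734.8 in bin 2, 335.4 in bin 3 and 16.0 in bin 20. Genes with a P/B of 20 to 50 had a similar peak, 1047 in bin 1, but 31.0 in bin 20. The median P was 968.7 and the median B 13.1, against 184.1 and 19.9 for all genes with B of at least 2, and B was under 4 in 152 of the 962 genes. The highest of the 20 bins before and the 20 bins after the start was bin 1 or bin 2 in 795 genes (82.6%, against 38.1% of all genes with B of at least 2). It was 1 of the last 2 bins before the annotated start in 120 genes, lay farther before the start in 28 and after bin 2 in 19.

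**Figure D1:**
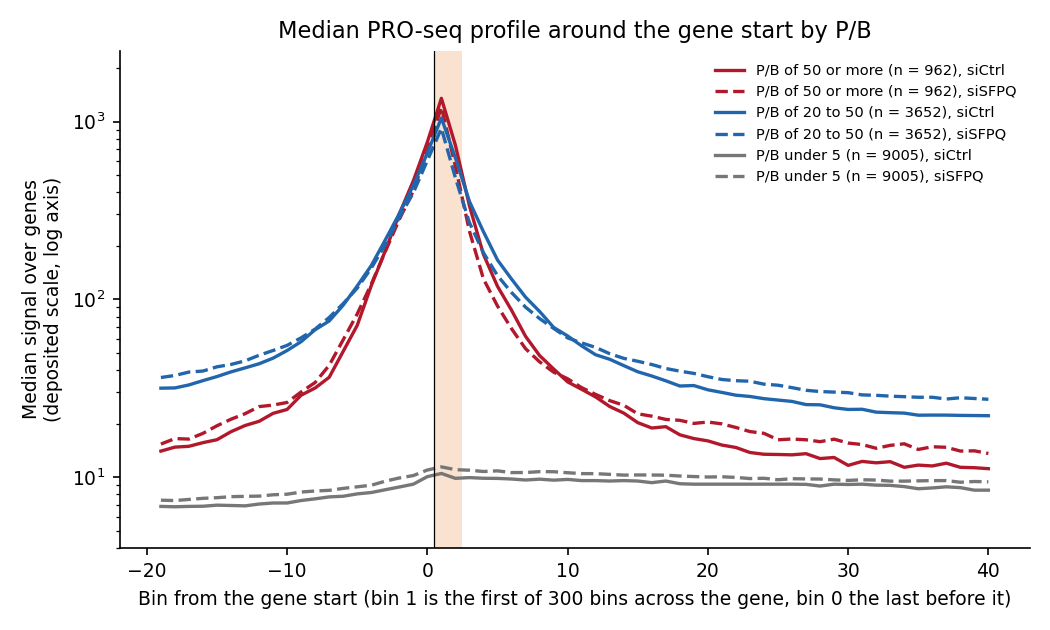
Median signal over genes from 20 bins before to 40 bins after the gene start (log axis) for 3 ranges of P/B, with siCtrl libraries as solid and siSFPQ libraries as dashed lines; the shaded band is the promoter window. In the 962 strongly paused genes (red) the peak at bin 1 is 1350 in siCtrl and 1205 in siSFPQ libraries, and the level at bin 20 is 16.0 and 20.4.

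The pausing ratio was 66.8 at the median of the 962 genes and 722 at the highest. It was under 60 in 334 genes, at least 100 in 160 and at least 200 in 18. DNAJC25 (chromosome 9, 111631334 to 111654345, GRCh38.p14), a membrane co-chaperone of the DnaJ family, had the highest P/B, with 990.1 and 823 (siCtrl), 526 and 689 (both siSFPQ-2 libraries) and 660.2 and 722 (both siSFPQ-3 libraries). Its body level was 5.79 and its start level 4179. The readthrough transcript DNAJC25-GNG10, with a P/B of 199, begins at the same base, so their peaks are the same reads. Next came ISOC1, an isochorismatase domain gene, with 398, and VASN, a membrane protein that binds TGF-beta, with 382. TERF1, the telomere repeat binding protein of shelterin, had a P/B of 322 at a far higher level, with a P of 34125 and a B of 106. The others of the first 10 were CCDC69 (282), the antisense transcript GCC2-AS1 (273), FKBP1B (266), which binds ryanodine receptors, SNAI1 (257), the transcription factor Snail of the epithelial-mesenchymal transition, the antizyme inhibitor AZIN2 (255) and TCF15 (241), a bHLH factor of the early mesoderm. Just inside the threshold lay MIPEPP3 and LNP1, at 50.002 and 50.02, and just outside it SPIN3 and MFSD13A, at 49.99 and 49.98. Among the 596 genes with a promoter sequence no other pair started within 500 bases on the same strand. Head-to-head starts within 1000 bases joined 20 members in 10 pairs, among them FZD4 with FZD4-DT, COX15 with CUTC, and ARV1 with TTC13.

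These genes were mostly protein-coding genes of middle length. Of them 790 were protein-coding, 149 long non-coding and 23 of other types, so that 5.72% of the protein-coding genes and 2.87% of the long non-coding genes with B of at least 2 were strongly paused. RefSeq spans were matched for 881, 873 by symbol and 8 by synonym, and their median was 26504 bases against 22019 for all genes with B of at least 2. A strongly paused gene was rare among short genes: 6 of 2304 genes under 3 kb (0.26%), 91 of 3016 from 3 to 10 kb (3.02%), 408 of 4532 from 10 to 30 kb (9.0%), 306 of 4596 from 30 to 100 kb (6.66%) and 70 of 2404 from 100 kb (2.91%). Bin sizes were not given in the sources used. If the bins divide each gene evenly, as was assumed here, the median was 88.3 bases per bin in these genes. In short genes a pause site could then lie beyond bin 2, and in long genes the window would average over bases outside the peak. Whether bin width accounts for the shares by length was not tested.

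Membership was compared between gene families after the member names had been seen. Over all genes with B of at least 2 the share of members was 4.57%. Numbered ZNF genes, which encode zinc finger proteins, held 50 members of 469 (10.7%), with ZNF878 highest at 147. Mitochondrial ribosomal protein genes held 8 of 78 (10.3%), while none of the 79 cytosolic ribosomal protein genes was a member, with RPS19 highest at a P/B of 22.6. Genes for the assembly of GPI anchors and N-glycans (PIG and ALG symbols) held 6 of 41, with ALG6 at 156. The 6 include PIGA, whose body window was 0 in 4 libraries. Solute carriers held 18 of 243, with SLC25A4, the mitochondrial ADP/ATP carrier, at 212. Divergent transcripts (-DT) held 31 of 405 (7.65%), antisense transcripts (-AS) 26 of 800 (3.25%) and LINC transcripts 13 of 519 (2.5%). No member came from 36 HOX genes, 18 keratin genes or 37 protocadherin genes, and the sole histone gene of 98 was H2AZ2, a variant histone gene, at 68.8. Of the gene classes known in other cells for pausing, few members passed P/B of 50: IER5 of 46 immediate early and AP-1 genes, and none of 29 heat shock and chaperone genes, where DNAJA1 reached 48.8. Their median P/B was 15.0 and 10.8, against 7.02 for all genes with B of at least 2. In the HOX, keratin, protocadherin, immediate early and chaperone groups a share of 4.57% would also mean few members. Their counts of 0 or 1 thus say little.

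**Figure D2:**
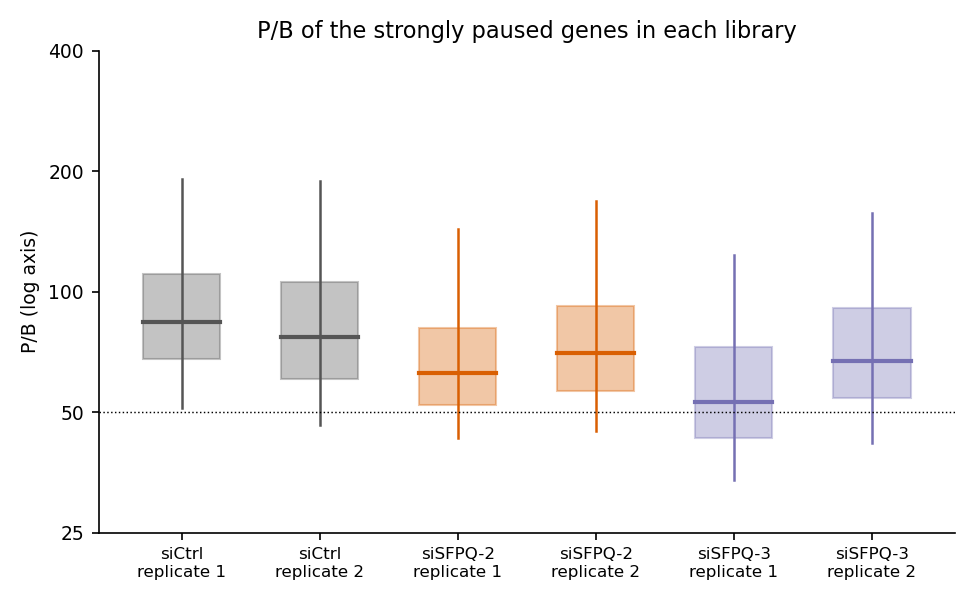
Pausing ratio P/B (log axis) of the strongly paused genes in each of the 6 libraries; boxes span the quartiles, the thick line is the median, whiskers reach the 5th and 95th percentile, and the dotted line is P/B of 50. Medians are 84.0 and 77.0 in the siCtrl libraries and 53.1 to 70.1 in the siSFPQ libraries.

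The pausing ratio was lower in the siSFPQ libraries than in the siCtrl libraries at most of these genes, by a modest amount. The median P/B of the members was 84.0 and 77.0 in siCtrl, 62.7 and 70.1 in the libraries of siSFPQ-2 and 53.1 and 67.1 in those of siSFPQ-3; all 4 siSFPQ libraries lay below both controls. P/B was at least 50 in all 6 libraries for 447 genes. The median log2 change, siSFPQ minus siCtrl, was -0.33, against -0.22 over all 21065 genes, and it was below 0 for 749 genes (77.9%, against 63.8%). In 419 genes (43.6%) all 4 siSFPQ libraries had a lower ratio than both siCtrl libraries, where 28.5% of all genes did, and in 42 (4.37%) all 4 had a higher one, where 7.13% did. With limma and Benjamini-Hochberg adjustment over all genes, 81 members passed the threshold of 0.05 with a lower ratio (8.42%, background 4.8%) and 1 with a higher ratio (0.104%, background 0.736%). Genes of weaker pausing had shares close to that of the members: 9.42% were called lower at a P/B of 20 to 50 and 7.5% at 10 to 20, with median changes of -0.38 and -0.30. A lower ratio can come from less promoter signal, more body signal or both, and the windows are given separately below. In such bulk samples a change in the share of cells and a change per cell cannot be told apart, for either window.

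The calls of single genes rested on all 6 libraries together. Adjusted p-values of the 81 genes lay between 0.0219 and 0.0499, and without any of the libraries (either siCtrl, siSFPQ-2 or siSFPQ-3 library) the number of members called lower was 0, with 178 to 372 below an unadjusted p of 0.05 (limma). The median change of the members without a library was -0.41 to -0.25. With siSFPQ-2 alone 0 members were called in either direction (limma, 236 lower and 12 higher at an unadjusted p under 0.05; background 0.0285% lower and 0.00949% higher), and with siSFPQ-3 alone 64 were called lower (6.65%, background 4.27%) and 0 higher (12 at an unadjusted p under 0.05; background 0.479%). The difference between the siRNAs itself gave 0 calls among the members and 0 among all genes (0.0%; limma, 39 members lower and 4 higher with siSFPQ-3 at an unadjusted p under 0.05).

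Called members had mostly a lower signal in the promoter window, while body calls went both ways. The median log2 change of the promoter window was -0.30, against -0.18 for all genes, and 69 members were called lower and 4 higher (7.17% and 0.416%, backgrounds 2.97% and 2.11%). The median change of the body window was 0.01, against 0.04 for all genes, with 179 members called higher and 107 lower (18.6% and 11.1%, backgrounds 24.5% and 16.3%). With median-of-ratios scaling of the profiles the body calls were 152 higher and 160 lower (15.8% and 16.6%, against 22.1% and 20.1% of all genes), so which direction was more frequent among the members depends on the scaling. Bin 4, the first of the body window, still lay in the fall from the peak, with medians of 178.7 (siCtrl) and 130.1 (siSFPQ). With a body window from bin 11 the median change was 0.09, against 0.07 for all genes, so the order reversed. The calls were then 192 higher and 76 lower (20% and 7.9%, against 25.2% and 14.9%). With the median of the body bins they were 130 and 22 (13.5% and 2.29%, against 19.9% and 5.71%). Among the 81 genes with a lower ratio the body window was called higher in 64 and the promoter window lower in 10, with 4 in both. These shares, 79.0% and 12.3%, were near those of all 1012 genes with a lower ratio, 83.4% and 10.3%. Their median changes were 0.77 for the body and -0.35 for the promoter window. When any library was left out, fewer members were called lower in the promoter window, and fewer of all genes were too. The median promoter change of the members was then -0.37 to -0.24, against -0.23 to -0.11 for all genes. Without siCtrl replicate 1, siCtrl replicate 2, siSFPQ-2 replicate 2 or siSFPQ-3 replicate 2, fewer body windows were called in both directions, as among all genes. Over all fits without a library, the median body change was -0.03 to 0.07, against -0.01 to 0.08 for all genes.

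**Figure D3:**
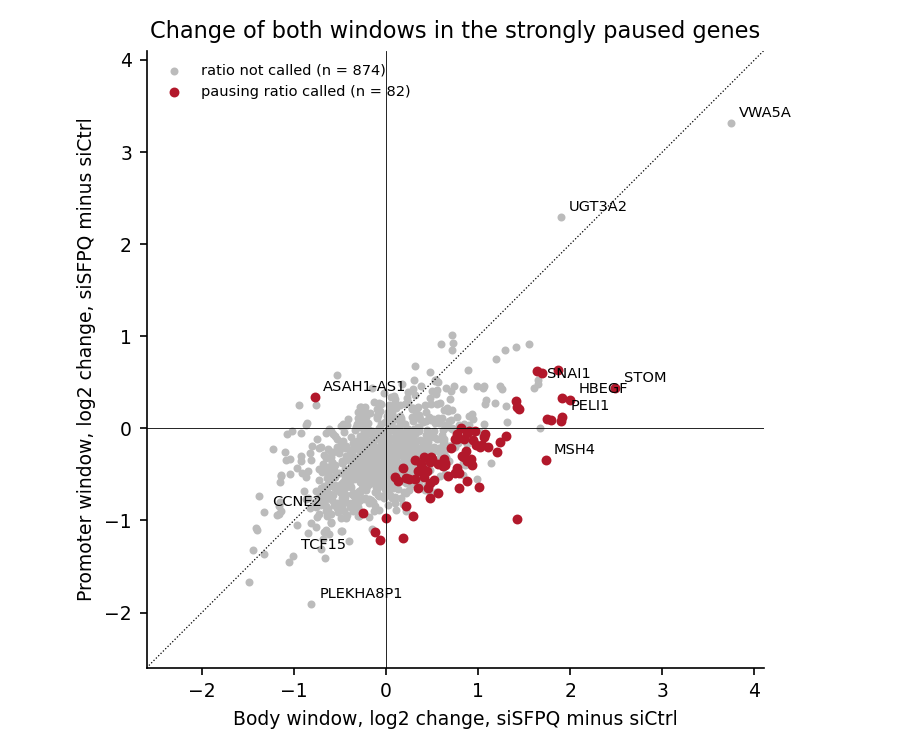
Log2 change of the promoter window against that of the body window, siSFPQ minus siCtrl, for the 956 strongly paused genes with a body signal in every library; red points have a pausing ratio past the threshold, and the dotted line marks equal change. Most red points lie right of 0 and below the dotted line, with a higher body window; UGT3A2 and VWA5A lie high and TCF15 and PLEKHA8P1 lie low in both.

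Large falls of the pausing ratio were in STOM, ARID5A, PELI1, SEMA7A, HBEGF and ZNF697, and in each the body level rose by 1.75 to 2.49 on the log2 scale. STOM (chromosome 9, 121338987 to 121370250), which encodes the membrane protein stomatin and whose promoter is printed above, showed the largest body rise of these 6. Its body levels were 2.53 and 2.60 (siCtrl), 11.6 and 17.0 (both siSFPQ-2 libraries) and 14.3 and 17.3 (both siSFPQ-3 libraries), while the promoter levels overlapped, at 1097 and 966 (siCtrl), 1529.6 and 1511 (siSFPQ-2) and 1049 and 1539.6 (siSFPQ-3). The body change was 2.49 (SE 0.20, adjusted p = 6.63e-04) and the ratio change -2.06 (SE 0.22, adjusted p = 0.0251). PELI1, a ubiquitin ligase of Toll-like receptor signalling, had body levels of 5.95 and 5.82 (siCtrl), 18.3 and 22.8 (both siSFPQ-2 libraries) and 24.1 and 25.2 (both siSFPQ-3 libraries), with no overlap between siCtrl and siSFPQ. Its promoter levels, 1309.7 and 1282 (siCtrl), 1300.0 and 1447 (siSFPQ-2) and 1333 and 1597 (siSFPQ-3), stayed within a narrow range, and its ratio change was -1.78 (SE 0.14, adjusted p = 0.0219). HBEGF, a ligand of the EGF receptor, had body levels of 5.12 and 2.95 (siCtrl), 12.6 and 16.8 (both siSFPQ-2 libraries) and 15.2 and 19.4 (both siSFPQ-3 libraries), again without overlap. Its ratio change, -1.68 (SE 0.30, adjusted p = 0.0415), came with siCtrl ratios that lay far apart, at 143 and 289.9.

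The same pattern held in ARID5A, an RNA-binding protein that stabilises cytokine mRNAs, SEMA7A, a membrane-anchored semaphorin, and ZNF697. Their body changes were 1.90, 1.79 and 1.75, each with adjusted p at or below 0.00429, and their promoter changes of 0.08, 0.09 and 0.10 did not pass (adjusted p of 0.907, 0.874 and 0.794). MSH4, a meiotic mismatch repair homologue, had low body levels, 0.599 and 1.01 (siCtrl), 2.68 and 3.64 (both siSFPQ-2 libraries) and 2.60 and 2.52 (both siSFPQ-3 libraries), and the highest bin around its start lay 5 bins before the annotated start, outside the promoter window. It met the minimum of B only through the siSFPQ libraries, so its call, a ratio change of -2.08, is partly fixed by that minimum. The mean B of siCtrl was under 2 in 31 members, of which MSH4 alone had a called ratio and 13 a body window called higher. These calls are included in the 81 lower ratios and 179 higher body windows given above. ASAH1-AS1, an antisense transcript of the acid ceramidase gene, was the sole member with a higher ratio past the threshold. Its ratios were 49.3 and 31.1 (siCtrl), 81.0 and 94.2 (both siSFPQ-2 libraries) and 89.6 and 75.4 (both siSFPQ-3 libraries), with a log2 change of 1.11 (SE 0.22, adjusted p = 0.049) and a body change of -0.78 (SE 0.17, adjusted p = 0.0165).

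**Figure D4:**
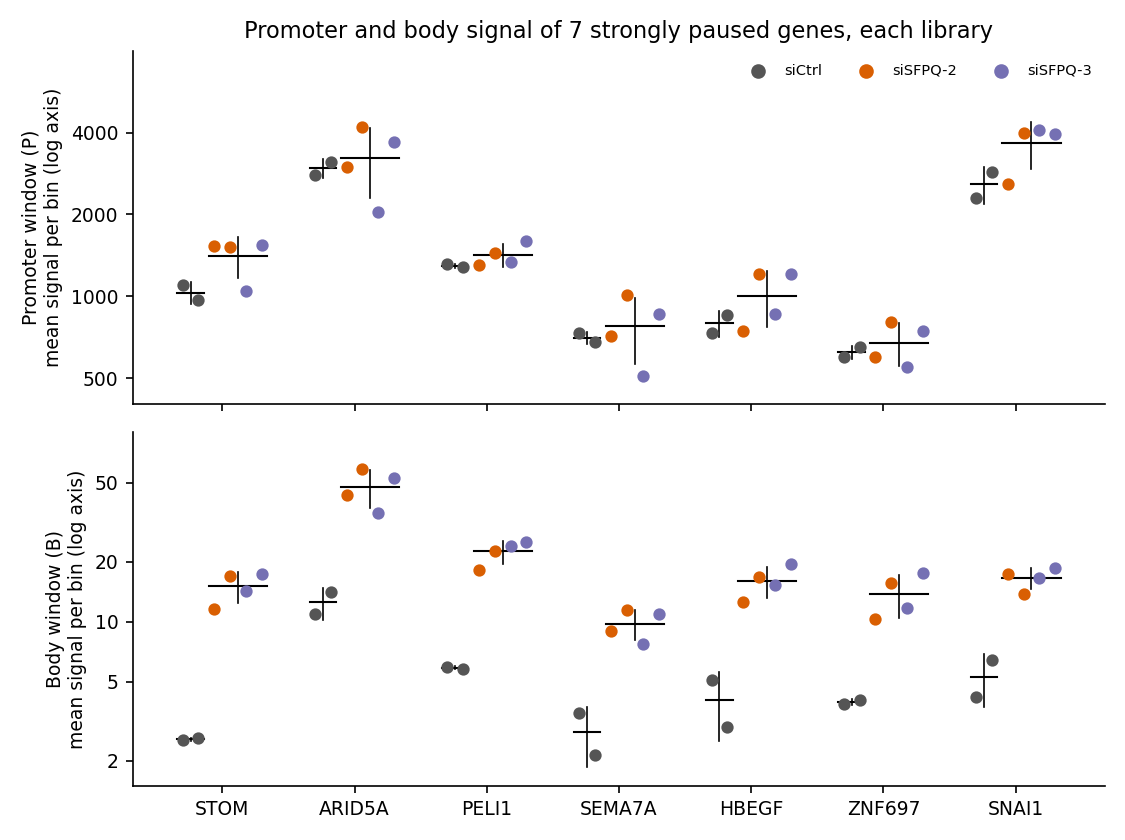
Promoter window (top) and body window (bottom) of 7 strongly paused genes in each library (log axes, mean signal per bin); dots are libraries, and black lines the mean ± SD of siCtrl (n = 2) and siSFPQ (n = 4). In the body window every siSFPQ library lies above both siCtrl libraries for all 7 genes, while the promoter values overlap.

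Gene reads fell more often than they rose; which part of each gene was counted is not given in the sources used. Of the 919 members that passed the filter on gene reads, 290 were called lower (31.6%, background 23.2%) and 121 higher (13.2%, background 24.8%), with a median log2 change of -0.13 against -0.02 for all 21773 features (limma, adjusted over all). All 4 siSFPQ libraries lay below both siCtrl libraries in 389 members (42.3%, against 31.0%) and above both in 171 (18.6%, against 30.3%). Each siRNA gave the same direction, with 216 lower and 94 higher for siSFPQ-2 (backgrounds 17.9% and 21.2%) and 267 lower and 105 higher for siSFPQ-3 (backgrounds 20.4% and 23.0%). Their difference gave 0 calls among the members (limma, 44 higher and 40 lower at an unadjusted p under 0.05; 0.0781% and 0.023% of all features). In the 290 lower genes the promoter change was below 0 in 285 (98.3%, against 90.5% of all genes called lower) and the body change in 275 (94.8%, against 98.6%). In the 121 higher genes the body change was above 0 in 120 (99.2%, against 99.1%) and called in 102 (84.3%, against 86.1%), and the promoter change was above 0 in 72 (59.5%, against 69.1%). Without siCtrl replicate 1 the counts were 118 lower and 67 higher (12.8% and 7.29%, against 11.3% and 18.2% of all features), so the share of falls was then near that of all features. Without siCtrl replicate 2 they were 142 and 49 (15.5% and 5.33%, against 11.6% and 16.6%). The authors' deposited profile classes, named up, ns and down, held 46, 810 and 106 of the 962 genes (4.78%, 84.2% and 11%), against 13.7%, 75.6% and 10.7% of all genes with B of at least 2.

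The direction went with gene length. Among members of 10 to 30 kb 34.6% were called lower and 7.27% higher, where all genes of that span had 29.1% and 19.3%. Among members of 30 to 100 kb the shares were 25.8% lower and 19.7% higher, against 18.8% and 32.6%. Among members of 100 kb or more they were 20% and 34.3%, against 12.6% and 53.2%. Longer genes were thus called higher more often in both sets, and at each of these spans the members had the lower share of rises and the higher share of falls.

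**Figure D5:**
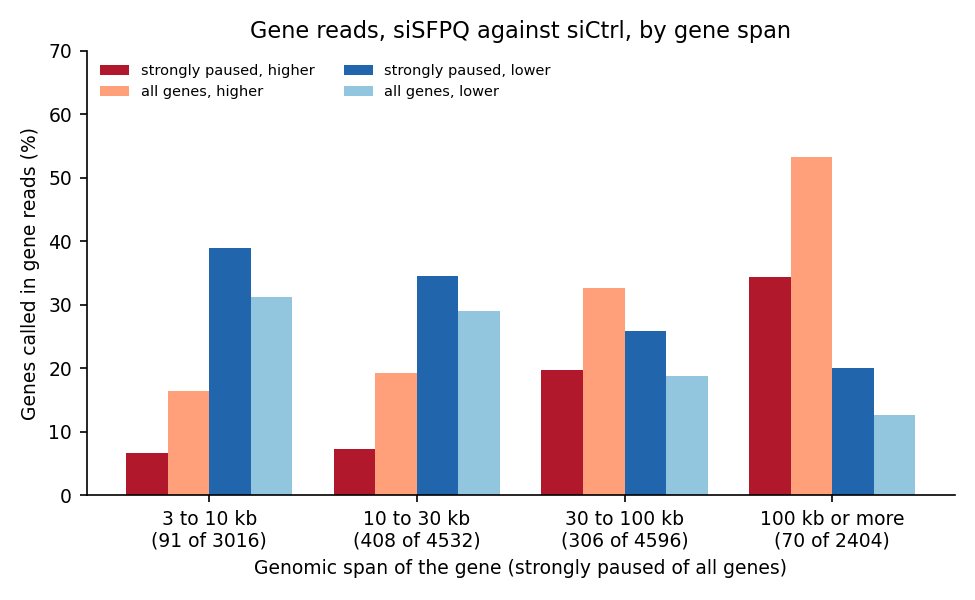
Share of genes called higher (red) and lower (blue) in gene reads, siSFPQ against siCtrl, by genomic span, for strongly paused genes (dark bars) and all genes with B of at least 2 (light bars). Dark red bars lie below light red bars and dark blue above light blue in all 4 ranges; members under 3 kb, 6 in number, are not drawn.

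VWA5A (chromosome 11, 124115450 to 124147721) had the largest difference in gene reads, but it passed the filter of at least 10 reads in at least 2 libraries only through the siSFPQ libraries, so its values are a description. Its normalized reads were 5.58 and 8.86 (siCtrl), 102 and 192 (both siSFPQ-2 libraries) and 40.9 and 64.8 (both siSFPQ-3 libraries). All siSFPQ libraries lay above both siCtrl libraries but spread widely, with the siSFPQ-2 libraries above those of siSFPQ-3. UGT3A2, a UDP-sugar transferase (chromosome 5, 36035021 to 36066882), had reads of 27.9 and 31.0 (siCtrl), 116 and 109 (both siSFPQ-2 libraries) and 130.1 and 125 (both siSFPQ-3 libraries). The groups did not overlap, and the log2 change was 1.99. The siCtrl body level of UGT3A2 was under 2, so it met the minimum of B only through the siSFPQ libraries. Its values are thus a description too. Its promoter levels were 76.3 and 59.3 (siCtrl), 314 and 344 (siSFPQ-2) and 327 and 334 (siSFPQ-3), and its ratio changed by 0.40.

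The other large rises were in SLC41A2, a magnesium transporter, ZNF774, STOM, SDC4, GCH1 and CHMP2B. SDC4 (chromosome 20, 45325288 to 45348424), the cell surface proteoglycan syndecan-4, had reads of 829 and 750.0 (siCtrl), 1612 and 2063 (both siSFPQ-2 libraries) and 1685 and 2433 (both siSFPQ-3 libraries), a change of 1.28 (SE 0.15, adjusted p = 7.25e-05), and its ratio fell by 1.58 (adjusted p = 0.0229). GCH1, the first enzyme of tetrahydrobiopterin synthesis, rose from 537 ± 18.3 (SD, n = 2) in siCtrl to 1275 ± 200.2 (SD, n = 4) in siSFPQ libraries, a change of 1.23 (SE 0.14, adjusted p = 5.16e-05), with no overlap between the groups. CHMP2B, a component of the ESCRT-III membrane scission complex, rose from 135 ± 8.10 (SD, n = 2) in siCtrl to 319.6 ± 43.3 (SD, n = 4) in siSFPQ libraries. The changes of SLC41A2, ZNF774 and STOM were 1.53 (SE 0.11, adjusted p = 2.19e-06), 1.40 (SE 0.17, adjusted p = 7.81e-05) and 1.32 (SE 0.14, adjusted p = 4.01e-05). In each of these genes the body window was called higher, by 1.41 to 2.49 on the log2 scale, and no promoter window passed.

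The largest falls were in C21orf62-AS1, C1QL4, TCF15, LINC02693, CCNE2, CAMKV, LINC02848 and PLEKHA8P1, and in all 8 every siSFPQ library lay below both siCtrl libraries in both windows. The body window was called lower in each, and the promoter window did not pass in CCNE2, CAMKV and PLEKHA8P1 (adjusted p of 0.0579, 0.206 and 0.0755). TCF15 (chromosome 20, 604257 to 610309), among the 10 highest pausing ratios, had reads of 334 and 274 (siCtrl), 134 and 86.4 (both siSFPQ-2 libraries) and 153 and 136 (both siSFPQ-3 libraries). Its promoter change was -1.38 (SE 0.19, adjusted p = 0.0454) and its body change -1.01 (SE 0.30, adjusted p = 0.0383), so the ratio changed by -0.37 (adjusted p = 0.387). CCNE2, cyclin E2 of the G1/S transition, had reads of 587 and 646 (siCtrl), 283 and 174 (both siSFPQ-2 libraries) and 334 and 282 (both siSFPQ-3 libraries), without overlap, and a change of -1.24 (SE 0.18, adjusted p = 2.66e-04). C1QL4 (chromosome 12, 49332409 to 49337188), a secreted C1q-like protein, went from 276 ± 0.0601 (SD, n = 2) in siCtrl to 108 ± 21.3 (SD, n = 4) in siSFPQ libraries, a change of -1.36 (SE 0.19, adjusted p = 2.21e-04), with its promoter window at -1.37 and its body window at -1.32. C21orf62-AS1, LINC02693, CAMKV and LINC02848 changed by -1.42, -1.26, -1.22 and -1.20 (adjusted p at or below 0.00886), the last 2 from means of 41.7 and 26.6 reads in siCtrl. The call of CAMKV was lost without siCtrl replicate 2 (adjusted p = 0.057), and that of LINC02848 without siCtrl replicate 1 (adjusted p = 0.0555) or replicate 2 (adjusted p = 0.077). PLEKHA8P1 changed by -1.17, but it is a pseudogene, and reads shared with its parent gene cannot be separated here.

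Members that belong to known pathways followed varied courses. Beside the list counts given here, 24.8% of all features were called higher and 23.2% lower in gene reads. Of the 50 E2F and S phase genes, 42 of the list fell and 0 rose in gene reads (limma; median change -0.77), and the list held 2 members, CCNE2 and SLBP, the histone mRNA stem-loop binding protein. SLBP had 1344 and 1296 (siCtrl), 1002 and 1134 (siSFPQ-2) and 1082 and 1261 (siSFPQ-3) reads and a change of -0.24 (SE 0.10, adjusted p = 0.0707). The mitotic list, where 41 of 43 fell and 0 rose, held CKS2, a subunit of cyclin-dependent kinases, and BUB3 of the spindle checkpoint. CKS2 fell in reads from 887 ± 12.7 (SD, n = 2) in siCtrl to 503 ± 75.3 (SD, n = 4) in siSFPQ libraries, a change of -0.83 (SE 0.10, adjusted p = 6.98e-05), and BUB3 by 0.31 (adjusted p = 0.0327). The ratios of these 4 genes changed by -0.05 to 0.42 on the log2 scale, none past the threshold.

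The TGF-beta response list, with 15 of 24 higher and 4 lower in gene reads, held SNAI1 and BAMBI, which moved apart. Beside this list and the p53 list below, 24.8% of all features were called higher and 23.2% lower. SNAI1 had body levels of 4.19 and 6.41 (siCtrl), 17.3 and 13.8 (both siSFPQ-2 libraries) and 16.7 and 18.7 (both siSFPQ-3 libraries), no overlap and a body change of 1.65 (SE 0.21, adjusted p = 0.00258). Its gene reads rose by 0.78 (SE 0.12, adjusted p = 3.50e-04) on the log2 scale. BAMBI, a decoy receptor that dampens TGF-beta signalling, had body levels of 44.7 and 55.1 (siCtrl), 27.1 and 22 (both siSFPQ-2 libraries) and 23.3 and 20.8 (both siSFPQ-3 libraries), all siSFPQ values below both siCtrl values, and a body change of -1.09 (SE 0.14, adjusted p = 0.00307). Its promoter levels overlapped, at 4122 and 3709 (siCtrl), 3247 and 4019.5 (siSFPQ-2) and 2294 and 3839 (siSFPQ-3). Of the p53 target list (17 of 30 higher, 4 lower), the member SESN2, a stress-induced regulator of mTORC1, changed in the other direction in gene reads, -0.30 (SE 0.09, adjusted p = 0.0201). The respiratory chain members NDUFA8, NDUFB7 and SDHC changed in reads by -0.24, -0.35 and 0.22, of which NDUFB7 passed (adjusted p = 0.0472). The translation factor EIF2S2 changed by -0.01 and IER5 by 0.09, neither past the threshold (adjusted p of 0.946 and 0.605). Lists of splicing factors and proteasome genes held no member, where lists of their size would hold few at a share of 4.57%.

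No gene of the pausing machinery list was strongly paused, and the reads of these genes moved in both directions. Of 53 tested pausing and elongation factor genes, 19 rose and 11 fell in gene reads (35.8% and 20.8%, against 24.8% and 23.2% of all features; limma, adjusted over all), with a median change of 0.07. None had a P/B of 50. Of all genes with B of at least 2, 4.57% did, a share that would mean few in a list of this size. CCNK, a cyclin of CDK12, was highest at 41.2. The rises with the smallest p were in components of the super elongation complex: MLLT3 with a log2 change of 1.38 (SE 0.12, adjusted p = 1.04e-05), AFF1 with 0.87 (SE 0.11, adjusted p = 1.07e-04), ELL2 with 1.27 (SE 0.16, adjusted p = 1.18e-04) and AFF4 with 0.76 (SE 0.10, adjusted p = 1.56e-04). The falls with the smallest p were in SSRP1, a subunit of the histone chaperone FACT, with -0.92 (SE 0.12, adjusted p = 1.22e-04), TRIM28 with -0.69 (SE 0.09, adjusted p = 2.09e-04), MEPCE, the capping enzyme of 7SK RNA, with -0.66 (SE 0.10, adjusted p = 3.55e-04), and HEXIM2, an inhibitor of P-TEFb in the 7SK complex, with -0.95 (SE 0.15, adjusted p = 5.45e-04). Other genes of both complexes, named after their values were seen, were mixed. ELL, EAF1 and CDK9 also rose, by 0.56 (SE 0.11, adjusted p = 0.00159), 0.48 (SE 0.14, adjusted p = 0.0178) and 0.39 (SE 0.11, adjusted p = 0.012). EAF2, which associates with ELL proteins, fell by 0.62 (SE 0.17, adjusted p = 0.0122), and MLLT1 and CCNT1 changed by -0.14 (SE 0.09, adjusted p = 0.204) and 0.07 (SE 0.10, adjusted p = 0.588). Of the 7SK genes, LARP7 rose by 0.53 (SE 0.11, adjusted p = 0.00288), and HEXIM1 changed by -0.16 (SE 0.14, adjusted p = 0.37). The pausing ratio of 6 genes of this list (11.3%, against 4.8% of all genes) was called lower and that of 0 higher.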

How the data were processed

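The submitters' processing notes name DESeq2 1.38.1, SAMtools 1.3.1, Bowtie2, cutadapt 1.14 and UMI-tools, and the genome builds hg38 and dm6. Their order, the counted part of each gene, bin sizes and profile scaling were not given in the sources used here. What the authors deposited is, per the file headers, signal per feature as normalized reads and signal in 500 bins per gene and library. All normalized values came out as whole reads (100% at a tolerance of 0.1), so whole reads were recovered for edgeR 4.0.16 and DESeq2 1.42.0, which were alternatives.

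The 3 profile files of each library were joined, 17 genes in more than 1 file and 2 repeated rows were dropped, and P and B were formed per library. Values were tested as log2(P + 0.1), log2(B + 0.1), their difference (the log2 pausing ratio) and log2(reads + 1), where a fold change understates the change of low genes. Tests used limma 3.58.1 (R 4.3.3, trended prior variance, all 3 groups fitted together) over 21065 genes with B of at least 2 and 21773 features with at least 10 normalized reads in at least 2 libraries. The Benjamini-Hochberg adjusted p had to be under 0.05. siSFPQ against siCtrl is the mean of both siRNA groups minus siCtrl. Scripts were tested on simulated data.

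Named genes were the 10 with the highest P/B, up to 8 in each direction with the largest called change in ratio and in gene reads where the siSFPQ and siCtrl libraries did not overlap, genes next to the threshold, up to 3 members of each of 12 gene lists, and up to 4 called pausing factors in each direction; some results under this rule are not reported here. The members and lists were chosen with earlier results of these data known, and the gene families after the member names were seen. No 2 libraries of a group agreed within counting noise (chi-square per degree of freedom of 10.8 to 23.7), so none was taken for a repeat deposit; this does not show that they are independent samples.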

Additional observations from a re-analysis of the deposited data

How the results depend on the processing

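Counts of members called with siSFPQ against siCtrl are given here for the settings that moved them by more than 1.5 times. Pausing ratio, lower (81): 51 when genes with B of at least 0.5 were tested, 47 with bin 1 alone as promoter window and 144 with bin 1 to bin 5. These were 5.3%, 4.89% and 15% of the members, against 2.55%, 3.14% and 7.1% of all genes. Pausing ratio, higher (1): 0 with a pseudocount of 0.01, with B of at least 0.5, with bin 1 alone and with a body window from bin 11, and 2 with bin 1 to bin 5. Under these settings 0.49% to 1.01% of all genes were called higher. Promoter window, lower (69) and higher (4): 36 and 1 with B of at least 10, 27 and 2 with bin 1 alone, and 147 and 9 with bin 1 to bin 5. The lower shares were 6.39%, 2.81% and 15.3% of the members (7.17% in the main setting). Of all genes they were 3.61%, 1.61% and 5.76%. With B of at least 10, 563 members remained, and the ratio was lower in 91 (16.2%, against 10.4% of all genes). Body window, lower (107): 22 with the median of the body bins (2.29%, against 5.71% of all genes). Leaving out each library in turn gave 0 to 0 members with a lower and 0 to 0 with a higher ratio, 0 to 28 and 0 to 1 for the promoter window, 16 to 110 and 71 to 149 for the body window, and 118 to 296 and 49 to 136 for gene reads. The cause of these differences was not tested.

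With the replicate number as a replicate block, 0 members were called lower and 0 higher in the ratio (limma, 298 and 18 at an unadjusted p under 0.05), 0 and 0 in the promoter window, 119 and 189 in the body window, and 335 and 146 in gene reads. None of all genes was called in the ratio or the promoter window either. The body shares were 12.4% and 19.6%, against 18.2% and 26.3% of all genes. The read shares were 36.5% and 15.9%, against 27.1% and 27.7% of all features. Deviations of libraries with the same number correlated at 0.053 and 0.059 between siCtrl and either siRNA group and at 0.38 between the siRNA groups in gene reads, so the numbers were not taken to pair the samples. Choosing the members with siCtrl and siSFPQ weighted equally gave 1081 genes, of which 938 were in both choices and 1073 were tested for the ratio. In the ratio 117 were lower and 1 higher (10.9% and 0.0932%, against 4.8% and 0.736% of all genes). In gene reads 306 were lower and 158 higher (29.6% and 15.3%, against 23.2% and 24.8% of all features).

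Settings chosen after seeing the data kept the counts within 1.5 times: the members with their highest bin at bin 1 or bin 2 (65 lower and 1 higher in the ratio, 244 lower and 90 higher in gene reads), and a fit without the 286 genes whose body window was 0 in a library (81 lower and 1 higher in the ratio). The lower shares in the ratio were 8.18% and 8.47%, against 4.8% and 4.91% of all genes. The read shares were 32.1% lower and 11.8% higher, against 23.2% and 24.8% of all features. Gene reads gave 287 lower and 127 higher with edgeR (31.2% and 13.8%, against 23% and 25.4% of all features). With DESeq2 they gave 226 and 98 (24.6% and 10.7%, against 18.8% and 21.7%). Of 238 alternative values for the 16 genes named for gene reads, 4 lost the call: CAMKV without siCtrl replicate 2, and LINC02848 with DESeq2 and without either siCtrl library. All 8 genes named for the ratio lost the call without any library and with the block, and none changed sign. B was under 4 in 152 members, which limits the precision of their ratio.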
